A study of Mus musculus with 4 samples.

Results

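Dendritic cells were followed in the brain side opposite to the injection site of young and old mice with or without a glioma. A barcode was counted as a dendritic cell when the UMIs (unique molecular identifiers, counted RNA molecules) of Flt3, Zbtb46, Ccr7, Xcr1, Clec9a and Cd209a summed to at least 2 and those of the MHC class II genes H2-Aa, H2-Ab1 and H2-Eb1 to at least 10. UMIs of T cell genes (Cd3d, Cd3e, Cd3g), B cell genes (Cd79a, Ms4a1) and Hmga2 had to be 0, and microglia genes (P2ry12, Tmem119, Gpr34) and border macrophage genes (Mrc1, Pf4, Cbr2) were each limited to 2. This left 207 of 44503 kept barcodes, of which 15 came from the old tumour library, 145 from the young tumour library, 22 from the old sham library and 25 from the young sham library. The rule reads expression, so the levels of its own genes are given as a description. Cells with at least 1 Ccr7 UMI, 41 in all, are called Ccr7-positive and are described apart from the 166 Ccr7-negative cells.

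The tumour mice had been given an intracranial injection of CT2A-GFP-luc cells, which derive from a mouse glioma and carry green fluorescent protein and luciferase, and the sham mice an injection of PBS (phosphate-buffered saline). Old mice were 93 weeks and young mice 8 weeks of age, the series names C57BL/6 as the strain, and tissue was taken 2 weeks later. Cells were freed with an adult brain dissociation kit without a stated sort and profiled by droplet 3′ sequencing. Each combination of age and injection has 1 library and the labels do not say how many mice it pools, so no difference between libraries has a replicate check, no test was made, and every interval below is a 95% interval of counting error only.

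Conventional dendritic cells take up antigen and present it to T cells on MHC class II. The type 1 subset (cDC1), which depends on the transcription factors IRF8 and BATF3 and carries the chemokine receptor XCR1 and the lectin CLEC9A, is specialised in presenting antigen from dead cells to CD8 T cells, and the type 2 subset (cDC2), which in mouse often carries the lectins CD209a, MGL2 and CLEC10A, mainly primes CD4 T cells. On maturation both subsets switch on CCR7, the receptor for the lymph node chemokines CCL19 and CCL21, together with costimulatory ligands, and migrate along lymphatic vessels. In a healthy brain they are rare and sit mostly in the meninges and the choroid plexus.

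The libraries held 76652484 UMIs in old tumour and 75924528 in young tumour, against 62726818 in old sham and 64464413 in young sham. Dendritic cells were deeper than the average kept barcode: their median was 9576 UMIs in old tumour and 9153 in young tumour, against 7012.5 in old sham and 8437 in young sham, and the medians over all kept barcodes were 5008, 3954, 4840 and 4055 in the same order. The young tumour library stood apart from the other libraries in a further way. It held 519 kept barcodes with at least 2 UMIs of Hmga2, a gene of embryonic and tumour cells, against 2 in old tumour, 2 in old sham and 0 in young sham, so it also held tumour-like cells that the other libraries nearly lacked. T cells, taken as barcodes with at least 2 UMIs of CD3 genes, numbered 198 in old tumour and 397 in young tumour, against 123 in old sham and 55 in young sham. Between 27 and 53 barcode sequences were shared by each pair of libraries, and none of them belonged to dendritic cells of both.

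Genes outside the rule were set beside the label. Cd74, the invariant chain that accompanies MHC class II, had UMIs in every cell and stood at 27388 CPM (the UMIs of a gene in the summed cells, scaled to a total of 1e+06) in old tumour and 19389 in young tumour, against 29032 in old sham and 28404 in young sham. Because the rule asks for MHC class II UMIs, Cd74 is no independent check of the label. Itgax, the integrin CD11c, was seen in 40%, 38.6%, 31.8% and 40% of cells in the same order. Barcodes outside the rule with at least 10 MHC class II UMIs and more than 2 of microglia or border macrophage genes were a comparator. In old tumour, 100% of these 126 barcodes had Cd74 UMIs, at 7044 CPM, and 15.9% had Itgax UMIs. The leukocyte gene Ptprc had UMIs in 15 of 15 old tumour cells and 120 of 145 young tumour cells, against 21 of 22 old sham and 25 of 25 young sham cells. Of the 38 Ccr7-positive cells of young tumour, 21 had Ptprc UMIs. The more specific genes of the rule were spread unevenly: Flt3, the receptor of the dendritic cell growth factor, had UMIs in 3 of 15 old tumour cells and 65 of 145 young tumour cells, against 6 of 22 old sham cells and 13 of 25 young sham cells. Cd209a had UMIs in 12, 36, 18 and 14 cells in that order, and at 1085, 201, 960 and 977 CPM it was lowest in young tumour. Il12b and Ccl22 were at 0 in all cells of old tumour. A group of cells in young tumour went against the label in part, as did some genes of the cells with Cd209a. The values of both are given below.

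Dendritic cells made up a larger part of the young tumour library than of the others. Their share of kept barcodes was 0.139% (interval 0.0777% to 0.229%) in old tumour, 1.25% (1.06% to 1.47%) in young tumour, 0.211% (0.132% to 0.320%) in old sham and 0.214% (0.138% to 0.315%) in young sham. The share in young tumour was thus 5.86 times that in young sham (3.82 to 9.36), whereas the share in old tumour was 0.657 times that in old sham, with an interval (0.317 to 1.33) that holds 1. Between the tumour libraries, old stood at 0.111 times young (0.0604 to 0.189). Between the sham libraries the ratio of old to young was 0.988 (0.531 to 1.83). The order young tumour above the rest was also seen among barcodes with at least 1 UMI of Ptprc, the leukocyte antigen CD45. Dendritic cells without Ptprc were then left out as well, and the ratio of young tumour to young sham was 4.48.

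**Figure D1:**
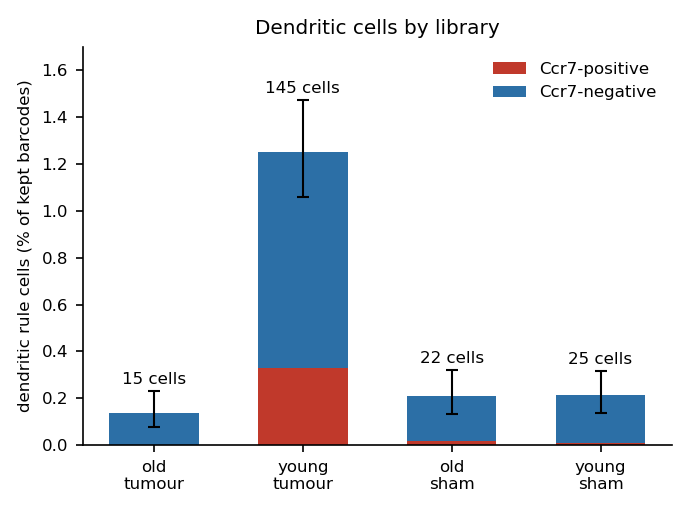
Dendritic cells as a percentage of kept barcodes in each library, with bars split into Ccr7-positive (red) and Ccr7-negative (blue) cells and error bars giving the exact 95% interval of the total share (counting error only, 1 library per group). The young tumour bar stands at 1.25%, and the other libraries lie between 0.139% and 0.214%.

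The thresholds of the rule touched the libraries unequally. With the 2 positive criteria alone, 33 barcodes qualified in old tumour and 191 in young tumour, against 46 in old sham and 34 in young sham, and the limits on markers of other cells removed 18, 46, 24 and 9 of them. Border macrophage genes removed the most in old tumour (11 barcodes) and B cell genes the most in old sham (15). Just inside the limit, with a sum of 2 UMIs over the dendritic cell genes, lay 1, 32, 2 and 1 cells in the same library order, and just outside it, with 1 UMI, lay 8, 78, 7 and 1. At MHC class II, 0, 14, 3 and 0 cells lay just inside with 10 to 19 UMIs and 1, 12, 1 and 2 just outside with 5 to 9. Without the limits on other markers, old sham came to 1.52 times young sham.

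Ccr7-positive cells were nearly all from young tumour. They numbered 0 of 15 in old tumour (a limit of 3 cells for a count of 0 allows a share of up to 20%) and 38 of 145 in young tumour (26.2%, interval 19.3% to 34.2%), against 2 of 22 in old sham (9.09%, 1.12% to 29.2%) and 1 of 25 in young sham (4.0%, 0.101% to 20.4%). Of kept barcodes they were 0% in old tumour, where the same limit allows up to 0.0278%, and 0.328% in young tumour (0.232% to 0.450%), against 0.0192% in old sham (0.00233% to 0.0693%) and 0.00855% in young sham (0.000216% to 0.0476%). The ratio of young tumour to young sham was 38.4, resting on the 1 cell of young sham (6.49 to 1557), and old tumour stood at most 0.0845 times as high as young tumour. With every cell thinned to 2000 UMIs the young tumour figure was 24.8%. The call was seldom marginal: 36 of the 38 cells had at least 2 Ccr7 UMIs, and the median was 15.

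Ccr7 (chr11:99144196-99155077, GENCODE, GRCm38) is also a gene of lymphocytes. In young tumour it had UMIs in 11.6% of T cells (median depth 4744 UMIs) and 21.7% of B cells (4494), but in only 0.234% of microglia (3262) and 0.188% of astrocytes (3511), which should lack it. Of all 173 barcodes with Ccr7 in young tumour, 111 had at least 3 UMIs of the maturation genes Ccl22, Fscn1, Il12b, Cacnb3 and Il4i1 together, 0.959% of kept barcodes, against 1 barcode in old tumour, 4 in old sham and 6 in young sham. Fscn1 is also seen in microglia, as given below. The rule kept 33 of those 111. A further 63 fell under the MHC class II limit, at a median depth of 4530 UMIs, 14 were removed for markers of other cells and 1 for too few dendritic cell UMIs. The Ccr7-positive cells described here are therefore the part with more MHC class II RNA of a larger mature population.

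Per cell, the maturation genes separated most Ccr7-positive from most Ccr7-negative cells. A list of mature, migratory dendritic cell genes other than Ccr7 summed to a median of 187 UMIs per 10000 in the Ccr7-positive cells of young tumour (lowest 10.6, highest 313) and 7.58 in its Ccr7-negative cells (0 to 50.1), so the ranges overlap. Of the 38 Ccr7-positive cells, 5 had under 3 UMIs of Ccl22, Fscn1, Il12b, Cacnb3 and Il4i1 together. The 2 Ccr7-positive cells of old sham had 136 and 184 and the 1 of young sham 209, within the range of the young tumour cells and above every Ccr7-negative cell of any library. The Ccr7-negative medians were 10.4 in old tumour, 19.0 in old sham and 7.26 in young sham. MHC class II went the other way, with a median of 67.6 UMIs of the 3 rule genes per 10000 in Ccr7-positive cells of young tumour (14.3 to 388) and 296 in Ccr7-negative ones (8.37 to 657), and those ranges overlap.

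**Figure D2:**
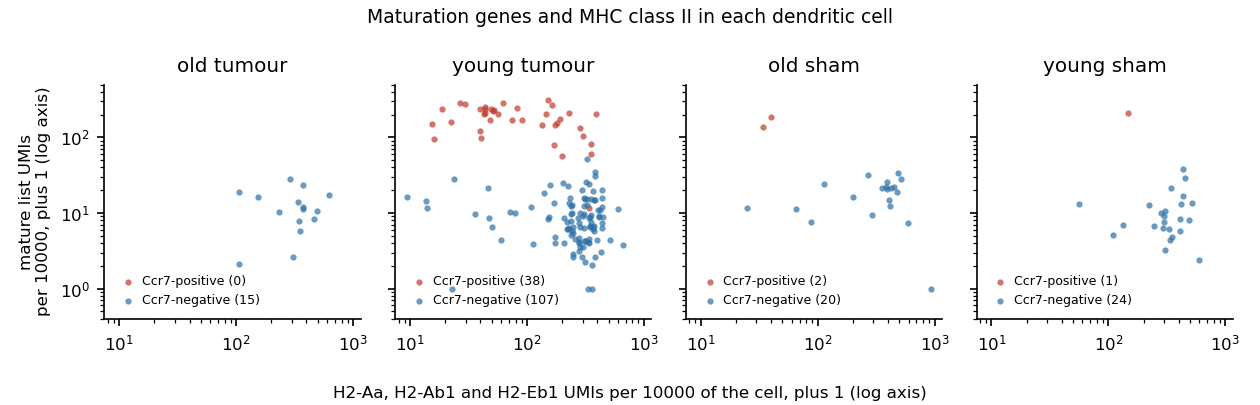
Each dendritic cell of the 4 libraries, with the UMIs of the MHC class II rule genes per 10000 on the x axis and those of the mature, migratory list without Ccr7 on the y axis, both plus 1 on log axes; red points are Ccr7-positive and blue points Ccr7-negative. Most Ccr7-positive cells of young tumour lie above the Ccr7-negative cells, with medians of 187 and 7.58 on the y axis, and the sets overlap between 10.6 and 50.1.

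Within young tumour, the summed Ccr7-positive cells (287168 UMIs, median 6797.5 a cell) were compared with the summed Ccr7-negative cells (1143741 UMIs, median 9658). A gene counts as higher or lower when the ratio of CPM is at least 2 or at most 0.5, among genes with at least 30 UMIs over both sets. Of 5102 such genes, 591 (11.6%) were higher and 1123 (22%) lower in Ccr7-positive cells. The median log2 ratio of all genes was -0.21, and centring on it gives 776 higher and 880 lower. Both sets come from 1 library and were split on a measured gene, and Ccr7 counts toward the rule, so a Ccr7-negative cell had to carry Flt3, Zbtb46, Xcr1, Clec9a or Cd209a while a Ccr7-positive one need not.

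The mature, migratory list was almost wholly higher: 28 of its 30 measured genes (34 listed, Ccr7 not counted) and none lower, with a median log2 ratio of 4.13. Fscn1 encodes fascin, which bundles actin in the long dendrites of mature cells. It stood at 1988 CPM in Ccr7-positive cells and 5.25 in Ccr7-negative cells, a ratio of 379 (173 to 1037), and was seen in 89.5% and 5.61% of cells. Fscn1 was not confined to mature dendritic cells in this tissue: microglia of old tumour stood at 178 CPM, with Fscn1 UMIs in 57.1% of barcodes. Ccl22, a chemokine that attracts regulatory T cells through CCR4, stood at 1118 and 2.62 CPM (ratio 426, 145 to 2077), in 81.6% and 2.80% of cells. Microglia of young tumour had Ccl22 UMIs in 0.134% of barcodes. The RNA was concentrated: 5 of the 38 cells held 74.5% of the Ccl22 UMIs. Il12b, the p40 subunit shared by interleukin 12 and interleukin 23, stood at 592 CPM in Ccr7-positive cells and was at 0 in all 107 Ccr7-negative cells, at least 226-fold higher with a floor of 3 UMIs per set. Its UMIs came from 55.3% of Ccr7-positive cells, with 67.1% of them in 5 cells.

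Other genes of the list with wide differences were Cacnb3, a calcium channel subunit (376 against 0.874 CPM), Socs2, a suppressor of cytokine signalling (310 against 5.25), Il4i1, an amino acid oxidase that restrains T cells (366 against 6.99), and Samsn1 (561 against 18.4). Among the 15 genes of largest ratio outside the list were Nr4a3, a nuclear receptor that is needed for CCR7-driven migration of mouse dendritic cells, at 226 against 1.75 CPM, Ramp3, a receptor chaperone, at 700 against 6.12, the membrane protease Mmp25 at 355 against 3.5, and Tnfrsf4, the costimulatory receptor OX40, at 143 against 0. The few Ccr7-positive sham cells carried the same genes: Fscn1 stood at 853 CPM in the 2 cells of old sham and 1375 in the 1 cell of young sham, Ccl22 at 122 and 500, and Il12b at 3169 and 1625, in that order. Il12b was thus present in Ccr7-positive cells of every library that had any.

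The chemokine Ccl5, which draws T cells, was the most abundant of the listed chemokines. It stood at 7950.05 CPM in Ccr7-positive cells of young tumour and 507 in Ccr7-negative cells, in 97.4% and 31.8% of cells. In old sham the 2 Ccr7-positive cells had 42175 CPM and in young sham the 1 cell had 36634 CPM, above the young tumour figure. Cxcl16, the ligand of CXCR6, stood at 961 and 294 CPM in Ccr7-positive and Ccr7-negative cells of young tumour, and Ccl17, a further CCR4 ligand, at 289 and 46.3. Cxcl9, a CXCR3 ligand, stood at 352 and 434 CPM. Without the C1q-high cells described below, Ccr7-negative cells stood at 96.3 CPM of Ccl5 and 201 of Cxcl9. With C1q-high cells left out of both sets, the log2 ratio was 2.48 for Cxcl16 and 1.81 for Ccl17, against 1.71 and 2.64 with them. Over the chemokine list 5 of 12 were higher and 3 lower (Ccl2, Ccl6, Ccl12), and without C1q-high cells 4 of 9 and 2. With those cells kept, 11.6% of all genes were higher and 22% lower.

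Costimulation and checkpoint ligands were split. Of 12 measured, 7 were higher: Cd80 (115 CPM in Ccr7-positive and 5.25 in Ccr7-negative cells), Cd86 (317 and 108), Cd40 (226 and 30.6), Cd83 (533 and 75.2), the PD-1 ligands Cd274 (251 and 22.7) and Pdcd1lg2 (101 and 4.37), and Cd200 (188 and 20.1). Activating and inhibitory ligands were thus higher side by side. The 3 lower genes were Havcr2, the receptor TIM-3 (13.9 and 49.8), Vsir and Lgals9.

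The NF-kB pathway list had 10 of 16 genes higher and 1 lower (Tnfrsf1a), with a median log2 ratio of 1.63. Traf1, an adaptor of TNF receptors, stood at 937 CPM in Ccr7-positive cells and 52.5 in Ccr7-negative cells, and Birc3, an inhibitor of cell death, at 129 and 20.1. Among the transcription factors of dendritic cells, 6 of 17 were higher, among them the NF-kB subunits Relb (564 and 28.0 CPM), Rel (508 and 54.2) and Nfkb2 (202 and 40.2). Klf4, Zeb2, Notch2 and Rbpj were lower, with Klf4 at 17.4 and 76.1 CPM and Zeb2 at 52.2 and 159. The cytoskeleton list had 7 of 12 higher and none lower, among them Actb (21963 and 10767) and the actin regulator Marcksl1 (613 and 75.2).

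Antigen presentation differed by class. In the MHC class II list, which leaves out the rule genes, 5 of 11 were lower and none higher: Cd74 at 10673 CPM in Ccr7-positive and 21577 in Ccr7-negative cells, the peptide loading subunits H2-DMa at 254 and 977 and H2-DMb1 at 115 and 664, Ciita, the master activator of the class, at 24.4 and 169, and H2-Ob. In the MHC class I list 5 of 19 were higher and 1 lower, with H2-K1 at 3517 and 1745 CPM and H2-Q7 at 1208 and 384. Lysosome and phagocytosis genes were lower in 7 of 13. Lyz2, the macrophage lysozyme, stood at 34.8 and 1671 CPM (ratio 0.0208, 0.00998 to 0.0384). Much of it lay in the 23 C1q-high cells described below, of which 22 were Ccr7-negative. Without them Ccr7-negative cells stood at 701 CPM. The log2 ratio, with C1q-high cells left out of the Ccr7-positive set as well, was -5.58. The Fc receptors Fcgr3 and Fcgr2b had 1 UMI each in Ccr7-positive cells, against 125 and 106 CPM in Ccr7-negative cells, with log2 ratios of -3.49 and -4.25 without C1q-high cells and -5.17 and -4.93 with them.

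Subset identity genes were mostly lower in Ccr7-positive than in Ccr7-negative cells of young tumour. The rule admits Ccr7-negative cells only with Flt3, Zbtb46, Xcr1, Clec9a or Cd209a UMIs, so part of this difference is built into the sets. Of all measured genes, 22% were lower. Of the cDC1 list outside the rule, 7 of 10 were lower and only Batf3 higher (254 CPM in Ccr7-positive and 106 in Ccr7-negative cells), and of the cDC2 list 7 of 8 were lower and none higher. Naaa, a lysosomal amidase of cDC1, stood at 10.4 and 357 CPM, and Clec10a at 10.4 and 133. Irf8 stood at 1243 and 662 CPM, a ratio under 2, and Irf4 at 6.97 and 5.25. Of the subset genes of the rule, Cd209a and Xcr1 were at 0 in all 38 cells, whereas Clec9a had 9 UMIs in 15.8% of them, and the 1 cell of young sham had 2 Xcr1 UMIs.

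Cell cycle genes were lower in 12 of 13. Hist1h1b, a histone gene of replicating cells, had 1 UMI in the Ccr7-positive cells, 3.48 CPM, against 484 CPM in Ccr7-negative cells (ratio 0.0072, 0.000182 to 0.0403). Top2a stood at 3.48 and 156 CPM and Mki67 at 6.96 and 94.4. Immediate early genes, which are also raised by tissue dissociation, were lower in 10 of 17, with Fos at 31.3 and 925 CPM and Egr1 at 3.48 and 178. The exception was Klf6, at 784 and 137 CPM. The receptor Ccr2, which recruits monocytes from the blood, had 1 UMI in Ccr7-positive cells and stood at 219 CPM in Ccr7-negative ones. Type I interferon-induced genes were higher in 7 of 21 and lower in 2, and without the 23 C1q-high cells described below in 2 of 20 and 2. With those cells kept, 11.6% of all genes were higher and 22% lower.

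**Figure D3:**
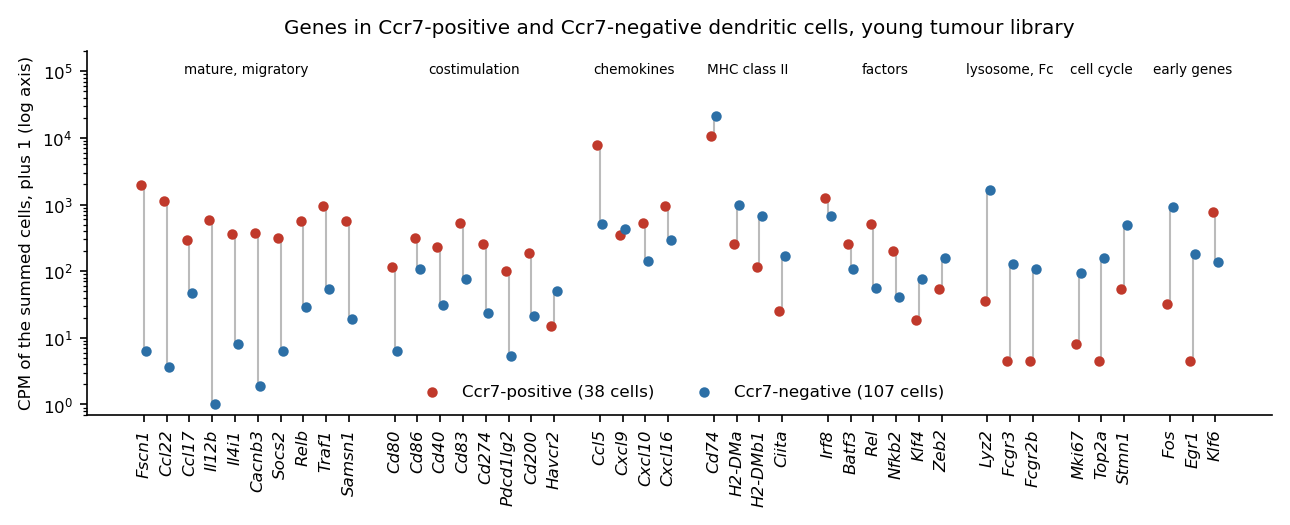
CPM plus 1 (log axis) of listed genes in the summed Ccr7-positive (red, 38 cells) and Ccr7-negative (blue, 107 cells) dendritic cells of young tumour, grouped by role, with a line joining both values of a gene. Maturation genes, most costimulatory genes and NF-kB factors lie higher in Ccr7-positive cells, such as Fscn1 at 1988 against 5.25 CPM, and MHC class II, lysosomal, cell cycle and most early genes lie lower, such as H2-DMa at 254 against 977 CPM.

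The sequences before the start of Ccl22, Il12b and Fscn1, the first the gene of the chemokine, the next that of the cytokine and the last that of fascin, are shown as examples of mature, migratory genes that were at or near 0 in Ccr7-negative cells. They come from RefSeq promoter windows (GRCm38.p6), all on the plus strand, from 250 bases before the RefSeq gene start up to the first base that RefSeq or GENCODE counts as part of the gene. Capitals mark GGGGAA, or TTCCCC where it lies on the other strand, the outer part of many binding sites of NF-kB proteins.
Ccl22, chr8:94745434-94745589: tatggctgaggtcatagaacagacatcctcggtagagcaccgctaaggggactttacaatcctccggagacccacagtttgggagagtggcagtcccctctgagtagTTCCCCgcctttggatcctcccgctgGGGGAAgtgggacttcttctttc
Il12b, chr11:44399813-44400062: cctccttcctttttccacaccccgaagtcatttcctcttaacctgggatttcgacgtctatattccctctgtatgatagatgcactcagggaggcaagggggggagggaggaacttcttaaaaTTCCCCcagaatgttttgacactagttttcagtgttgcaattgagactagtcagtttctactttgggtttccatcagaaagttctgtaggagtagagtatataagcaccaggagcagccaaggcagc
Fscn1, chr5:142960105-142960342: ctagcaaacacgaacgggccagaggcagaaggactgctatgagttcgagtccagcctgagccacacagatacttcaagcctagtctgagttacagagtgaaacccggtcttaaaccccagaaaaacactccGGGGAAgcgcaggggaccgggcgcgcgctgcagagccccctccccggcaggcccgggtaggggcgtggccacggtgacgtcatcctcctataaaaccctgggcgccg
The matches begin 143 and 117 bases before the RefSeq start in Ccl22, 127 in Il12b and 119 in Fscn1. In whole windows of 300 bases (250 before and 50 after the start, both strands), GGGGAA was present for 8 of the 13 genes with a window among the 15 highest in Ccr7-positive cells (61.5%), for 6 of 13 among the 15 lowest (46.2%), for 30.8% of all measured genes and for 25.7% of all genes with a window. The full NF-kB consensus was present for 2 of 13 in each group (15.4%), for 6.6% of measured genes and for 5.14% of all. The windows of Ccl22, Il12b and Fscn1 had 0 matches of the full consensus. The short motif and the genes shown were picked after several had been looked at, a match is only a run of letters, and what it does in these cells was not measured.

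The Ccr7-negative cells were sorted by which subset genes of the rule they carried. In old tumour 3 cells had Xcr1 or Clec9a, 11 Cd209a, 1 both and 0 neither. In young tumour the counts were 51, 32, 4 and 20, in old sham 2, 17, 1 and 0, and in young sham 9, 14, 0 and 1. Cells with Xcr1 or Clec9a were thus 20% of Ccr7-negative cells in old tumour (4.33% to 48.1%) and 47.7% in young tumour (37.9% to 57.5%), against 10.0% in old sham (1.23% to 31.7%) and 37.5% in young sham (18.8% to 59.4%). Cells with Cd209a were 73.3% (44.9% to 92.2%), 29.9% (21.4% to 39.5%), 85% (62.1% to 96.8%) and 58.3% (36.6% to 77.9%) in that order. Cells with Cd209a were the largest kind in both old libraries and in young sham, whose interval overlaps those of the old libraries. The young tumour library had the most cells with neither gene.

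As shares of kept barcodes, cells with Xcr1 or Clec9a were 5.73 times as frequent in young tumour as in young sham (2.79 to 13.2), and cells with Cd209a 2.31 times (1.20 to 4.69). Old sham stood at 0.25 times young sham for Xcr1 or Clec9a (0.0262 to 1.21) and 1.36 times for Cd209a (0.633 to 2.99), intervals that hold 1. Old tumour stood at 0.0630 times young tumour for Xcr1 or Clec9a (0.0126 to 0.195) and 0.368 times for Cd209a (0.167 to 0.749). Cells with neither gene, which entered through Flt3 or Zbtb46, numbered 20 in young tumour, against 1 in young sham.

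**Figure D4:**
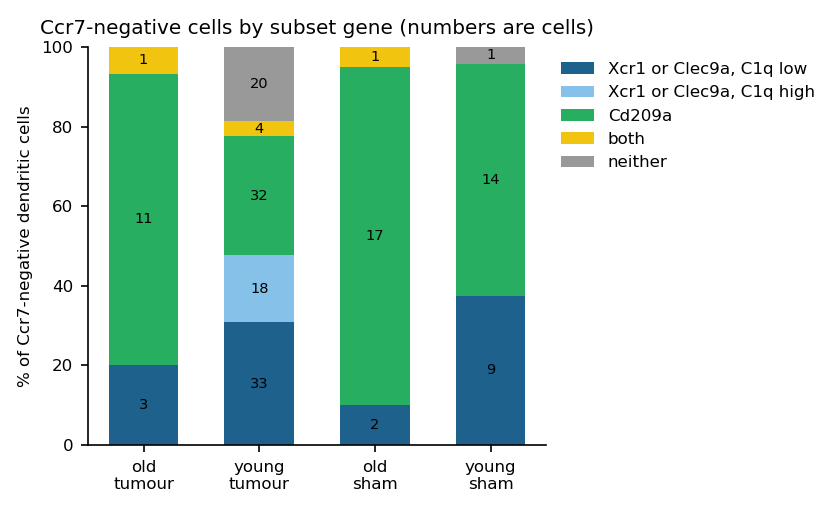
Ccr7-negative dendritic cells of each library in percent, split by the subset genes of the rule (Xcr1 or Clec9a in dark blue, or light blue where C1q genes were high, Cd209a in green, both in yellow, neither in grey), with cell numbers in the bars. The Cd209a part is 73.3% in old tumour and 85% in old sham, against 29.9% in young tumour and 58.3% in young sham.

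Genes outside the rule followed the same split. Within young tumour, 3418 genes reached 30 UMIs over cells with Xcr1 or Clec9a and cells with Cd209a, and 383 (11.2%) were higher and 212 (6.2%) lower in the Xcr1 or Clec9a set. Of the cDC1 list outside the rule, 9 of 10 were higher there (Itgae, Cadm1, Batf3, Irf8, Naaa, Tlr3, Snx22, Ifi205, Cd24a), and of the cDC2 list 4 of 5 were lower. Mgl2 stood at 29.1 CPM in the Xcr1 or Clec9a set and 790 in the Cd209a set, Clec10a at 17.8 and 399, and S100a4, a calcium-binding protein, at 46.9 and 1145. C1qa ran the other way at 3190 and 63.8 CPM, as did Apoe at 11495 and 455.

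That last difference came from a small number of cells. Cells with at least 20 UMIs of C1qa, C1qb and C1qc, the complement C1q chains made by macrophages, per 10000 numbered 0 in old tumour and 23 in young tumour, against 1 in old sham and 1 in young sham, and they held 97.7% of the C1q UMIs of dendritic cells in young tumour. Of the 23, 15 had Xcr1, 10 Clec9a and 3 Flt3, and the dendritic cell genes summed to a median of only 3 UMIs. Their macrophage genes were high: C1qa stood at 7314 CPM, Apoe at 27620, Ms4a7 at 1285 and the Fc receptor Fcgr1 at 339. Of other cDC1 genes, Irf8 at 227 CPM, Naaa at 90.8 and Batf3 at 73.3 were below the C1q-low Xcr1 or Clec9a cells of young tumour given below. Itgae was at 0, whereas Cadm1, also of the cDC1 list, stood at 108 CPM and was seen in 60.9% of the cells. The border macrophage gene Mrc1, limited by the rule, stood at 20.9 CPM. Their median doublet score, 0.0202, was not above that of all young tumour dendritic cells (0.0341), and whether they are dendritic cells, macrophages or doublets of both was not tested. This class was cut after its values were seen, and list counts without it are given below where they were recomputed.

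Without C1q-high cells, the cells with Xcr1 or Clec9a numbered 3 in old tumour and 33 in young tumour, against 2 in old sham and 9 in young sham. Irf8 stood at 1704, 1579, 1076 and 1849 CPM in that order, and Naaa at 1099, 812, 478 and 959. Batf3 was at 0 in the old tumour cells and at 192, 239 and 199 CPM in the others. The cells with Cd209a (11, 31, 16 and 13 cells) had Mgl2 at 1462, 825, 1183 and 1569 CPM and Clec10a at 630, 404, 505 and 367. Lyz2 varied more in them, at 3727, 541, 2660 and 6138 CPM, lowest in young tumour. Mrc1, limited by the rule, was seen in 63.6%, 29.0%, 37.5% and 61.5% of these Cd209a cells. The monocyte and macrophage gene Csf1r was seen in 54.5%, 22.6%, 56.25% and 30.8%, whereas Ms4a7 stood at 0, 4.16, 0 and 9.17 CPM. Flt3 was seen in 9.09%, 38.7%, 25% and 23.1% and Zbtb46 in 18.2%, 22.6%, 6.25% and 7.69%. Whether all of these cells are dendritic cells was not tested.

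Ccr7-negative cells of young tumour (107 cells) and young sham (24 cells) differed in interferon-induced, chemokine and cell cycle genes, and also in markers of other cells given further on. Of 4850 genes with at least 30 UMIs over both, 771 (15.9%) were higher and 175 (3.61%) lower in young tumour, with a median log2 ratio of 0.20 over all genes, and centring on it gives 559 higher and 303 lower. The sets differ in makeup, as the subset counts above show.

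Without C1q-high cells 599 of 4095 genes were higher and 145 lower. Type I interferon-induced genes were higher in young tumour in 17 of 20 measured and lower in none, with a median log2 ratio of 1.99. Isg15, a ubiquitin-like protein, stood at 334 CPM in old tumour and 500 in young tumour, against 105 in old sham and 116 in young sham. The tumour libraries were thus above the sham libraries in their sums. In old tumour, however, 42 of the 48 Isg15 UMIs lay in the 3 cells with Xcr1 or Clec9a, and its 11 cells with Cd209a stood at 60.9 CPM, against 121 in the Cd209a cells of old sham and 64.2 in those of young sham. Bst2, tetherin, stood at 508, 883, 406 and 259 CPM. Ifitm1, which is not in the list, stood at 6.95, 755, 18.4 and 18.5 CPM, with old tumour the lowest. Interferon gamma-induced GTPases, which attack the compartments of intracellular microbes, were higher in 7 of 8 with none lower and a median log2 ratio of 3.01. Gbp2 stood at 6.95, 101, 0 and 4.63 CPM, Iigp1 at 13.9, 93.6, 0 and 4.63 and Igtp at 0, 69.1, 24.6 and 4.63, so that young tumour was the highest library for all 3 genes, with 1 UMI of each in young sham. Without C1q-high cells 16 of 19 and 6 of 7 genes of these lists were higher.

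The chemokine list had 6 of 11 genes higher and 1 lower, and without C1q-high cells 4 of 9 and 2. Cxcl9 stood at 62.6 CPM in old tumour and 434 in young tumour, against 12.3 in old sham and 0 in young sham, at least 31.2-fold higher in young tumour than in young sham with a floor of 3 UMIs. The C1q-high cells carried much of it, at 1232 CPM, and without them it stood at 201 CPM in young tumour, against 0 in young sham. Ccl5 stood at 0, 507, 73.8 and 4.63 CPM and was again concentrated, with 74.5% of its young tumour UMIs in 5 cells. The C1q-high cells stood at 1805 CPM of Ccl5, and without them Ccr7-negative cells stood at 96.3 CPM in young tumour, against 4.93 in young sham. Among MHC class I genes 6 of 18 were higher, 4 of 17 without C1q-high cells, and none lower, with B2m, the light chain, at 1287, 2383, 1396 and 1147 CPM and H2-Q7 at 111, 384, 92.2 and 74.0 over the 4 libraries in the same order. Without C1q-high cells the log2 ratio of B2m in young tumour over young sham was 0.80, under 2-fold, against 1.05 with them. That of H2-Q7 was 2.37 either way.

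Cell cycle genes were higher in 12 of 13, with a median log2 ratio of 2.48, and in 12 of 12 without C1q-high cells. Mki67, a marker of cycling cells, stood at 0 CPM in old tumour and 94.4 in young tumour, against 6.15 in old sham and 0 in young sham, Top2a, the mitotic topoisomerase, at 6.95, 156, 0 and 13.9, and Stmn1, a microtubule regulator, at 20.9, 499, 221 and 69.4. Cells with at least 5 UMIs of the list were 0 of 15 in old tumour and 36 of 107 in young tumour (33.6%, 24.8% to 43.4%), against 2 of 20 in old sham and 3 of 24 in young sham. In young tumour they included 17 of the 33 cells with Xcr1 or Clec9a and low C1q, and 5 of the 32 with Cd209a. Only 2 of the 38 Ccr7-positive cells reached the same level. The median depth was 9658 UMIs in young tumour, against 8542.5 in young sham. Its part in these counts was not tested.

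Genes of the immediate early and NF-kB pathway lists were lower in young tumour than in young sham in 7 of 17 and 5 of 15, with none and 1 (Ltb) higher. Without C1q-high cells 6 of 17 and 4 of 12 were lower, and 0 and 2 higher. Nr4a1 stood at 306 CPM in old tumour and 69.1 in young tumour, against 652 in old sham and 342 in young sham, Fos at 2469, 925, 2097 and 1902, and Dusp1, a phosphatase, at 1245, 389, 1260 and 1120. The NF-kB inhibitor Nfkbia stood at 1495, 393, 2386 and 999 CPM and Tnfaip3 at 83.5, 24.5, 264 and 83.3. For these 5 genes young tumour was the lowest library. Tnfsf9, the ligand of the costimulatory receptor 4-1BB, was among the lowest ratios of all genes, at 598, 42.8, 1205 and 458 CPM (young tumour over young sham 0.0935, 0.0650 to 0.133; log2 ratio -3.42, and -2.70 without C1q-high cells). Cd83 stood at 389, 75.2, 732 and 291 CPM, the cytokine Il1b at 1189, 365, 3037 and 1286, and the chemokine Ccl9 at 160, 52.5, 227 and 393. The summed immediate early list stood at 17345 CPM in old tumour and 6268 in young tumour, against 16699 in old sham and 12854 in young sham in Ccr7-negative cells, and in microglia at 14714, 11439, 30391 and 21669, so microglia of young tumour were also below those of young sham.

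Of the transcription factors of dendritic cells 0 of 15 were higher in young tumour and 1 lower, Rel at 54.2 CPM in young tumour, against 120 in young sham. Of the cDC1 list 2 of 11 were lower and none higher (3 of 11 without C1q-high cells), with Wdfy4, needed for cross-presentation in mouse, at 132 and 315 CPM. Of the cDC2 list 2 of 8 were lower and 1 higher (4 and 1 without C1q-high cells), with Mgl2 at 265 and 888 CPM and Tnip3 at 69.1 and 412. In the MHC class II list only Lgmn, a lysosomal protease, was higher, at 249 and 50.9 CPM. That direction turned without C1q-high cells.

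Markers of other cells moved with this comparison. Ms4a7, a macrophage gene, stood at 326 CPM in young tumour, against 4.63 in young sham, and the 9 border macrophage genes summed to 365 and 125 CPM in the same order, with Pf4, Cbr2, Lyve1 and Folr2 at 0 in young sham. The 10 plasmacytoid genes summed to 1602 CPM in young tumour, against 407 in young sham, where Ly6d, Cox6a2 and Klk1 were at 0, and 8 of the 9 that passed the minimum of 30 UMIs were higher, or 7 of 8 without C1q-high cells. The plasmacytoid genes reached 5 UMIs in 10 young tumour dendritic cells and in 1 from old sham, and in 0 from either other library. Summed genes of the choroid plexus epithelium stood at 12133 CPM in young tumour, against 324 in young sham, where Folr1 and Kl were at 0, and 97.5% of the UMIs of Ttr, the most abundant of them, lay in 5 cells. Cells with more than 20 UMIs per 10000 of astrocyte, oligodendrocyte, endothelial and choroid plexus markers together numbered 1 in old tumour and 22 in young tumour, against 2 in old sham and 1 in young sham. Without them and the C1q-high cells, 15 of 17 type I interferon-induced genes, 5 of 5 interferon gamma-induced GTPases and 12 of 12 cell cycle genes were higher, and 7 of 17 immediate early genes were lower. With all cells kept, 15.9% of all genes were higher and 3.61% lower.

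**Figure D5:**
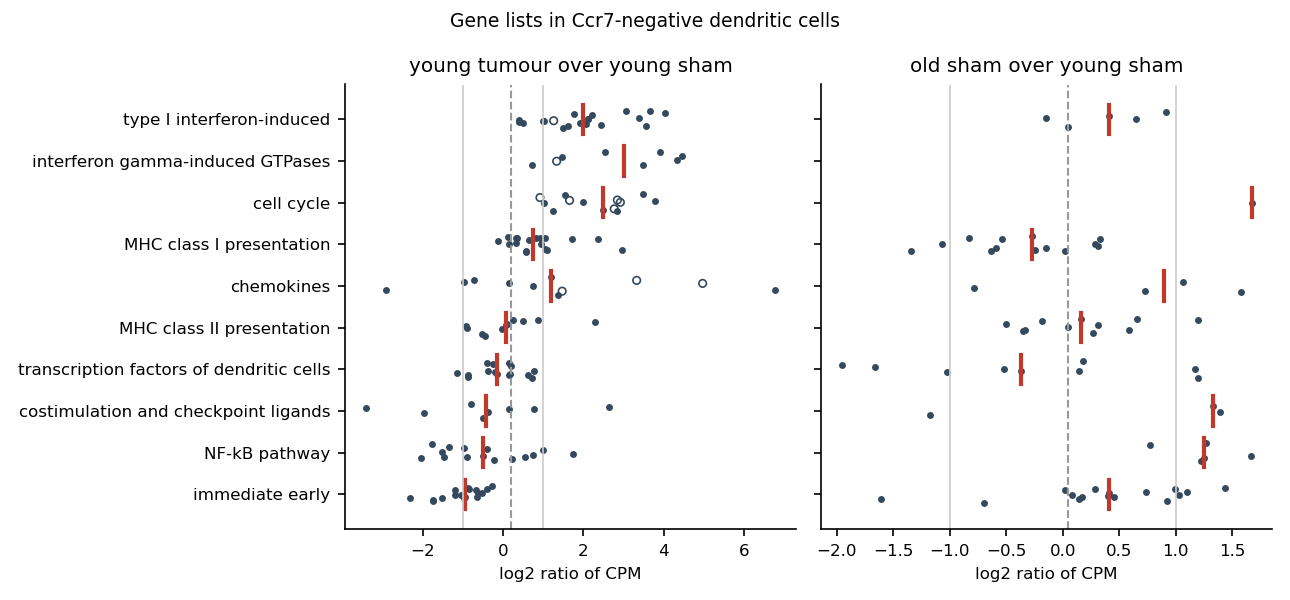
Log2 ratios of CPM in Ccr7-negative dendritic cells for the measured genes of 10 lists, young tumour over young sham on the left and old sham over young sham on the right; points are genes (open where a library was at 0 and the value is a bound), red bars list medians, the dashed line the median of all genes and grey lines the 2-fold limits. On the left the interferon and cell cycle lists lie to the right of the limit, with medians of 1.99, 3.01 and 2.48, and immediate early genes lie to the left at a median of -0.95.

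Interferon-induced genes were also higher in other cells of young tumour. The summed type I list stood at 4583 CPM in old tumour and 5596 in young tumour, against 3363 in old sham and 2781 in young sham in Ccr7-negative dendritic cells. It stood at 2463, 8708, 3661 and 2617 CPM in monocytes, 1885, 4999, 2278 and 1297 in T cells and 1072, 1164, 841 and 570 in microglia. The GTPase list stood at 76.5, 729, 129 and 106 CPM in Ccr7-negative dendritic cells and at 130, 1825, 193 and 114 in monocytes. Young tumour was thus above young sham in each of these cell classes as well.

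The old sham library was set against the young sham library in Ccr7-negative cells (20 and 24 cells), where 110 of 1488 genes (7.39%) were higher and 56 (3.76%) lower. The cDC1 list had 4 of 5 genes lower and none higher. Irf8 stood at 191 CPM in old sham and 740 in young sham (ratio 0.257, 0.169 to 0.380), Naaa at 141 and 541 (0.261, 0.159 to 0.411), Batf3 at 61.5 and 125, and Wdfy4 at 135 and 315. The makeup differed alongside, with 2 of 20 and 9 of 24 cells carrying Xcr1 or Clec9a. Cst3, the protease inhibitor cystatin C and one of the most abundant genes of these cells, stood at 9475 and 21617 CPM (0.438, 0.414 to 0.464). Of the MHC class I list 2 of 13 were lower, the immunoproteasome genes Psmb8 (449 and 939) and Psmb9 (203 and 514), and none higher.

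Genes of the NF-kB pathway list were higher in old sham in 4 of 5 measured: Nfkbia at 2386 CPM in old sham and 999 in young sham, Nfkbiz at 412 and 176, Tnfaip3 at 264 and 83.3 and Traf1 at 234 and 97.2. With them stood Il1b at 3037 and 1286 CPM, Tnfsf9 at 1205 and 458, Cd83 at 732 and 291 and Tnip3 at 1137 and 412. In microglia the summed NF-kB list was likewise 4280 CPM in old sham and 1370 in young sham. Of type I interferon-induced genes 0 of 5 passed 2-fold either way. Oligodendrocyte genes were higher in 4 of 4, and endothelial genes were lower in 4 of 4. Their part in the other differences was not tested.

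The 15 cells of old tumour were too few for counts of genes, and their levels were set beside the others above. They lay near or between the sham libraries for Cd209a, Mgl2, Tnfsf9 and Nfkbia, and between sham and young tumour for Bst2. The cell cycle list summed to 132 CPM in old tumour and 1501 in young tumour, against 332 in old sham and 227 in young sham. Differences of the 15 cells from old sham were not detectable where the counting intervals meet, as for the share of kept barcodes.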

How the data were processed

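Single-cell RNA was measured in 1 library for each of 4 groups (old tumour, young tumour, old sham, young sham), so groups and libraries coincide. The deposited matrices hold raw counts, the UMIs of 32285 genes in every barcode. Reads were mapped to mm10 and processed with Cell Ranger 3.0.2 and Seurat 2.3.4, per the submitters' processing notes, whereas the matrix headers name Cell Ranger 6.1.0. The strain field differs between samples in its last digit and was not used. Gene positions are from GENCODE (GRCm38), in which 32235 gene identifiers were found, and promoter windows are from RefSeq.

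Of 46097 barcodes, 44503 were kept, those with 500 or more UMIs, 200 or more genes and a mitochondrial part no higher than 20%. The rule for dendritic cells was then applied as given in the report, with no clustering. Barcodes were kept whatever their Scrublet doublet score (scanpy 1.11.5), and removal of the highest scores at 0.8% per 1000 barcodes was an alternative. Levels are the summed UMIs of a set of cells in 1 library over that set's total (CPM). Intervals are at 95%, exact conditional Poisson for ratios and Clopper-Pearson for shares, and a count of 0 was replaced by a floor of 3 UMIs, which gives a bound. Genes needed 30 UMIs over both sets, and counts of genes past 2-fold were made only where both sets held at least 20 cells. Intervals cover counting error only, since UMIs of 1 library say nothing about variation between mice. Intervals of gene ratios also treat UMIs as independent and leave out the spread between cells, so they are too narrow where a few cells hold much of the RNA. The procedure was tested on simulated Poisson counts without spread between cells (python 3.11, numpy 2.4.6, scipy 1.17.1, pandas 2.3.3, matplotlib 3.10.9).

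The members, the 34 gene lists (19 of markers and 15 of pathways, 1 listed gene not found) and the filters were chosen with earlier results of these data known. Named genes were the 10 highest and 10 lowest between libraries, by the interval bound nearest a ratio of 1, the 15 highest and 15 lowest between Ccr7-positive and Ccr7-negative cells, the 15 most abundant, and members of the lists, of which those named were picked after their values were seen. Not eligible were genes of the Y chromosome or the mitochondrion, Xist, globin and ribosomal protein genes, and clone names (Gm numbers, Rik). Comparator cells were barcodes outside the rule: microglia with at least 5 UMIs of P2ry12, Tmem119 and Gpr34, monocytes with at least 3 of Ly6c2, Ccr2 and Plac8 and no lymphocyte genes, T cells with at least 2 of the CD3 genes, B cells with at least 2 of Cd79a and Ms4a1, and astrocytes with at least 5 of Slc1a3, Aqp4 and Aldoc. The alternatives are given in the closing section.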

Additional observations from a re-analysis of the deposited data

Results flagged for a closer look

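The ratio of tumour to sham in the share of dendritic cells differed between the ages. It was 5.86 in young mice and 0.657 in old mice, so the young tumour library lay above its sham library and the old tumour library below its own. With 1 library per group this difference was not tested.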

How the results depend on the processing

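No paired analysis was possible because each group has 1 library and no result comes from a test; for the same reason no library could be left out. The share of dendritic cells in young tumour over young sham lay between 4.48 and 5.86 under a stricter cell filter, doublet removal, higher limits on dendritic cell or MHC class II genes, no limits on other markers, and barcodes with Ptprc as the base, and old tumour over old sham lay between 0.657 and 0.761. The Ccr7-positive share of old sham was 0% with doublet removal or 20 MHC class II UMIs and that of young sham 0% with doublet removal, since those settings drop the 2 and 1 cells. Counts of genes moved by more than 1.5 times with the UMI minimum. At 10 UMIs they were 1467 higher and 548 lower in young tumour over young sham, 502 and 398 in old sham over young sham, and 1045 and 2045 in Ccr7-positive over Ccr7-negative cells. At 1 UMI they were 1467 and 1711, 984 and 811, and 1711 and 2151. The direction of calls at 1 UMI is not reliable, because a 0 in the smaller set was replaced by 3 UMIs. Genes with few UMIs at 0 in young sham could thus count as lower in young tumour. Likewise, genes at 0 in Ccr7-positive cells could count as higher there. Thinned cells gave 173 and 299 genes in Ccr7-positive over Ccr7-negative cells, since fewer genes reach 30 UMIs, and median centring gave 303 lower genes in young tumour over young sham. The gene counts of old sham over young sham could not be recomputed where cells were dropped, because old sham then holds under 20 Ccr7-negative cells. Ratios between libraries of Ccr7-positive cells were not run, for the same limit. Alternatives without C1q-high cells, without cells high in markers of other tissue, or without both were added after seeing the data. Without C1q-high cells the log2 ratio of Lgmn in young tumour over young sham was -0.18, and without both it was -0.72, with Apoe at -0.86. Over named genes and settings together, 3 results turned direction, 109 moved beyond their counting interval and 1164 were not counted as moved. The 1164 include every gene at 0 in 1 set that did not turn, whatever its new value. Cxcl9 in young tumour over young sham is such a gene, with a log2 ratio of 4.97, and 3.76 without C1q-high cells. The precision in old tumour is limited by its 15 cells, whose median depth was 9576 UMIs.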
